A study of Rattus norvegicus with 9 samples.

Results

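Named pseudogenes that carried reads in the frontal cortex of adult rats were described animal by animal beside the genes they were copied from. A gene was included when the table typed it as ncRNA, its symbol ended in -ps with or without digits and did not begin with RT1-, and at least 45 reads were counted on it over all 9 rats. This gave 52 pseudogenes of 37209 genes. The table held 844 named ncRNA pseudogenes outside the RT1 group, of which 792 were under the read minimum and 677 had no read in any rat. The genes were thus chosen by their read total, which is not a result. Just inside the minimum were Rpl29-ps1 with 46 reads, Trim15-ps1 with 49 and Sacm2l-ps2 with 50, and just outside it were Vom1r-ps108 with 44, Peli1-ps1 with 42 and Scand3-ps4 with 32.

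The animals were male Wistar rats, 14 weeks old, and the study asked how maternal separation in early life and later electroacupuncture change gene expression in this region. Control litters (rats A1, A2 and A6) stayed with their mothers, MS rats (B3, B4 and B6) were parted from them for 4 h a day from PND 1 to PND 21, and MS+EA rats (C3, C10 and C16) had the same separation and then acupuncture at GV20 and GV29 every other day from PND 61 to PND 81 under anaesthesia. The treatment label names Control and MS beside the anaesthesia, and the study states that these rats had anaesthesia alone. No sham-treated rats were among those sequenced. Each library was made from total RNA depleted of ribosomal RNA and carries an animal number of its own. Totals lay between 12479905 and 19007907 reads per rat, with every MS+EA rat (at most 14913736) under every other rat (at least 16106381).

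A pseudogene is a copy of a gene that is held to have lost its coding function. A processed pseudogene arises when a spliced mRNA is copied back into the genome, and short, abundant mRNAs such as those of ribosomal proteins have left many such copies. Because a copy resembles its parent, a read from the parent transcript may be placed on the copy, and the sources used here do not say which program counted the reads, whether it used strand or what it did with reads that match in more than 1 place. Every value below is therefore a number of reads placed on the annotated pseudogene, and its source transcript was not tested. A parent gene was found for 41 of the 52, with 37 distinct parents.

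The 52 pseudogenes received 69938 reads in all, and their share of a rat's reads stayed between 0.0463% and 0.0507%. This share did not separate the groups, since Control rats held 0.0471% to 0.0497%, MS rats 0.0463% to 0.0502% and MS+EA rats 0.0482% to 0.0507%. All ncRNA genes together took 0.233% to 0.264% in Control, 0.244% to 0.269% in MS and 0.275% to 0.306% in MS+EA rats. The reads were uneven among the pseudogenes. Calm-ps2, related to calmodulin, the calcium sensor protein, alone held 40% of them, and the 5 with most reads held 74.0%. Totals ran from 46 to 27989 with a median of 246, with 12 pseudogenes over 1000 reads and 18 under 100.

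Most pseudogenes were spread over all animals. Reads were present in every rat for 51 of the 52, and the rat with most reads on a pseudogene held a median of 16.7% of its reads, where an equal split would give 11.1%. In CPM (reads scaled to a common library size, here by TMM), the highest rat was under 2 times the lowest for 15 pseudogenes, at 2 to 5 times for 26 and over 5 times for 10. In 14 of them at least 1 rat had 3 reads or fewer, so that part of this spread lies within counting error. Trim15-ps1 had 17 of its 49 reads in B3 (34.7%), and Rps2-ps2, the only pseudogene without reads in some rats, had 50.6% of its reads in B6.

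Rps2-ps2, named after the 40S ribosomal protein gene Rps2, was counted almost entirely in a pair of MS rats. It had 76 reads in B4 and 87 in B6, against 1, 0 and 3 in Control, 0 in B3 and 0, 2 and 3 in MS+EA, so that 94.8% of its reads came from B4 and B6. The MS group was therefore split, with B3 at the level of the other groups. Its mean was 3.33 ± 2.89 CPM (SD, n = 3) in MS, 0.080 ± 0.096 in Control and 0.124 ± 0.12 in MS+EA rats. The filter on low counts kept Rps2-ps2 out of the main test, and since the reads in B4 and B6 also brought it past the read minimum, these values are a description with no test.

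Gene order here is that of GRCr8 among the genes counted here only, so other annotated genes may lie between. Next to Rps2-ps2 in this order, the class I histocompatibility pseudogene RT1-O2-ps was high in B4 and B6 too. It had 16, 25 and 10 reads in Control, 18, 185 and 213 in MS and 26, 12 and 9 in MS+EA rats, so that B4 and B6 held 77.4% of them. Among genes with at least 30 reads in both B4 and B6, only 2, these neighbours, had both rats at least 5 times the highest other rat. This search was made after the values were seen. The next gene, RT1-N2, a class I histocompatibility gene, went the other way, with 64 reads in B4 and 77 in B6 against 126 in B3 and 128 to 171 in Control rats. MS+EA rats had 92, 146 and 73 reads on it. Rps2-ps1, another copy named after Rps2 that lies 4 places away, had its lowest count in B4 (20 reads), 42 in B6, 62 in B3, 47 to 57 in Control and 34 to 75 in MS+EA rats. RT1-T18, on the other side of Rps2-ps2, had 1 read in all. The summed level of 4 hypothalamic marker genes was 47.9 CPM in B4, 1.74 in B6 and 0.238 to 4.92 in the other rats, and that of 3 choroid plexus markers was 16.4 CPM in B4, 4.93 in B6 and 0.871 to 4.44 in the other rats. The part of these tissues in the values of Rps2-ps2 was not tested. The genomes of the animals were not analysed here.

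**Figure D1:**
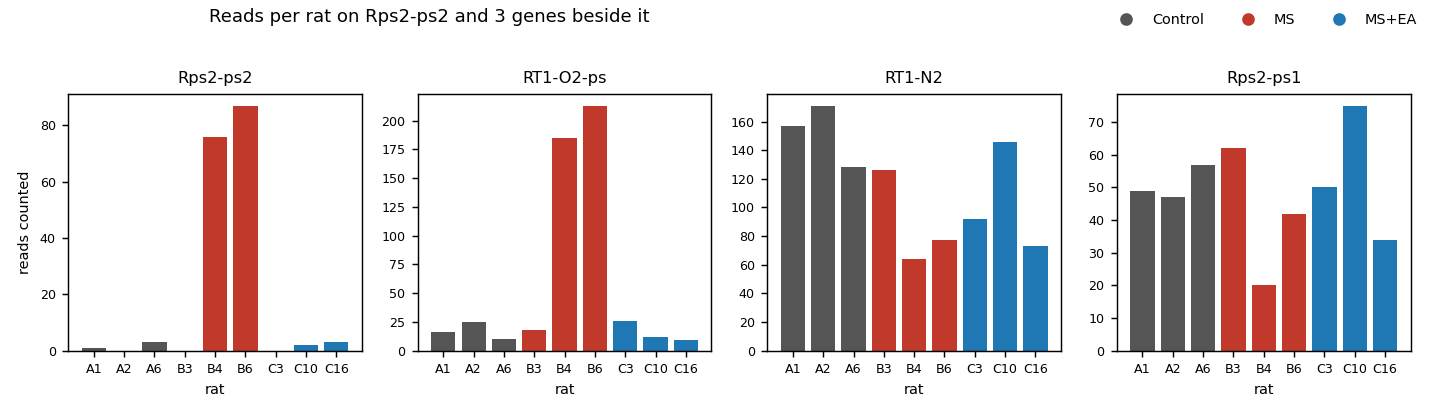
Reads counted per rat on Rps2-ps2 and on 3 genes near it in the GRCr8 order of the genes counted here. Each gene has 1 bar per rat, coloured by group, and a vertical axis of its own. B4 and B6 hold 94.8% of the reads of Rps2-ps2 and 77.4% of those of RT1-O2-ps, while RT1-N2 has 64 and 77 reads in these rats against 126 in B3.

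Rps2-ps6, the third copy of Rps2 among the 52, was counted almost read for read with Rps2. For every 100 reads on Rps2 it had 91.0, 98.6 and 100 reads in Control, 99.7, 92.5 and 118 in MS and 101, 101 and 92.6 in MS+EA. The ratio thus stayed within 1.29 times over all 9 rats, although both genes varied about 1.5 times. Rps2-ps6 stood at 60.8 ± 3.29 CPM in Control, 53.3 ± 3.2 in MS and 48.8 ± 9.16 in MS+EA rats (SD, n = 3), and Rps2 at 63.0 ± 3.14, 52.1 ± 7.01 and 49.8 ± 8.25. Log2 fold changes against Control were -0.19 (SE 0.112) in MS and -0.32 (SE 0.113) in MS+EA rats for the pseudogene, and -0.27 (SE 0.121) and -0.34 (SE 0.121) for Rps2, none of which passed the test (edgeR, adjusted p at least 0.119). Whether the reads of this pair come from 1 transcript was not tested. Rps2-ps1 had only 2.27 to 11.6 reads per 100 on Rps2, and Rps2-ps2 8.63 in B4, 11.9 in B6 and at most 0.507 elsewhere.

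Across the 41 pairs the number of reads on the pseudogene per 100 reads on the parent had a median over the rats above 100 for 2 pairs, above 10 for 17 pairs (these 2 included), from 1 to 10 for 19 and under 1 for 5. The ratio is not corrected for length, so it is compared between rats and not read as a level. The 2 highest were Rpl32-ps3, with 116 to 304 reads per 100 on the 60S ribosomal protein gene Rpl32, and Uqcrb-ps1, with 173 to 245 per 100 on Uqcrb, which encodes a subunit of respiratory complex III. Hspa8, the constitutive heat shock protein 70, has a pair of copies here under its older name. Hsc70-ps2 had 34.6 to 66.1 and Hsc70-ps1 7.24 to 16.6 reads per 100 on Hspa8, which itself had only 301 to 459 reads per rat. In 36 of the 41 pairs the pseudogene varied more over the rats than its parent, whose highest rat was 1.12 to 2.3 times the lowest, and pseudogenes with few reads carry a larger counting error. With 1 read added to both counts, the ratio did not overlap between MS and Control for 6 of the 41 pairs (1 higher in MS, 5 lower). It did not overlap between MS+EA and MS for 9 (6 higher in MS+EA, 3 lower) and between MS+EA and Control for 9 (3 higher in MS+EA, 6 lower). Each was at the exact permutation p = 0.1 that is the smallest 3 rats against 3 can give. Cct7-ps1, among the 5 lower in MS, overlapped with no read added and with 0.5 reads added (exact permutation p = 0.2 with 0.5). No such share was computed over other gene pairs, so these counts are not read as a result about the pseudogenes.

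**Figure D2:**
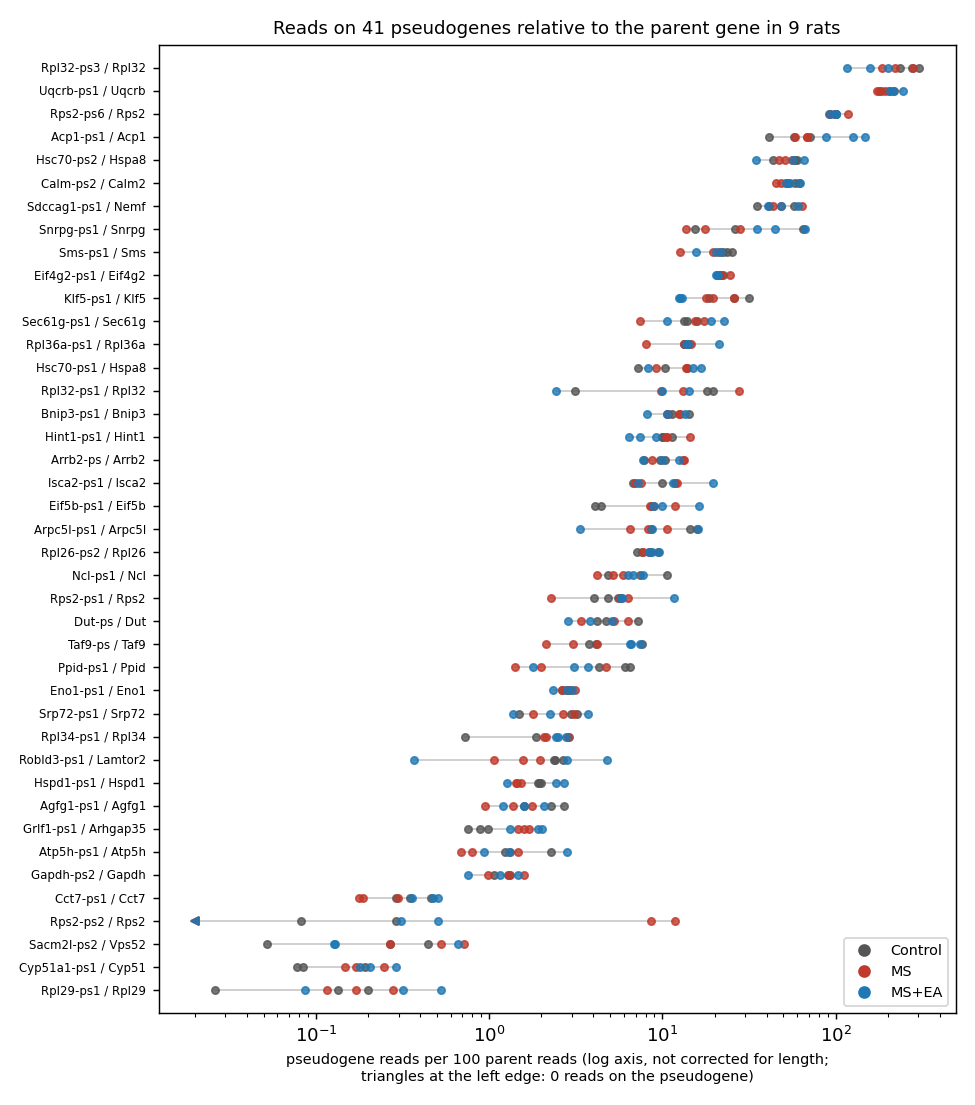
Reads on the pseudogene for every 100 reads on the parent gene on a log axis, 1 row per pair, 1 point per rat coloured by group; a triangle at the left edge marks a rat with no read on the pseudogene. Rps2-ps6 stays between 91.0 and 118 in all 9 rats, and Rps2-ps2 lies at 8.63 and 11.9 in B4 and B6 and at most at 0.507 in the others.

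Of the 52 pseudogenes 41 passed the filter and were tested with all genes by edgeR's quasi-likelihood test, and a gene was called when it differed by more than 1.5 times with a p under 0.05 after Benjamini-Hochberg adjustment. The other 11 were Rps2-ps2 and 10 with 46 to 59 reads and at most 17 in a rat. MS and Control rats differed in 0 of the 41, where 0.0238% of all 16837 genes tested were called, and MS+EA and MS rats in 0, where 0.0178% were called. At an unadjusted p under 0.05 there were 5 in each of these comparisons, beside 10.6% and 12.4% of all genes. DESeq2 called 1 (Grlf1-ps1) and 0, but its share over all genes is not given here. MS+EA and Control rats differed in 2 of the 41 (4.88%), both higher in MS+EA, where 1.37% of all genes (1.25% as higher) and 2.68% of the genes typed ncRNA were called. Unadjusted, 8 passed, beside 22.5% of all genes. With so few calls the share among the pseudogenes cannot be set apart from these backgrounds. The comparisons share groups and are not independent.

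The median log2 fold change of the 41 was -0.015 for MS against Control, 0.089 for MS+EA against MS and 0.102 for MS+EA against Control, beside -0.001, 0.001 and 0.006 over all genes tested and 0.002, 0.227 and 0.210 over the genes typed ncRNA. In CPM the groups did not overlap for 10 pseudogenes between MS and Control (24.4%), where 17.6% of all genes did not overlap, for 8 between MS+EA and MS (19.5%, against 17.9%) and for 8 between MS+EA and Control (19.5%, against 25.9%). With a fold change above 1.5 as well there were 4, 3 and 5, and the shares over all genes were 3.34%, 3.01% and 5.08%. None of the 37 parent genes was called in any comparison. For MS+EA against Control, Gapdh, Eif4g2, Rpl29 and Ppid had an edgeR adjusted p under 0.05 (0.0208 to 0.0303). Their log2 fold changes of -0.34, 0.28, -0.35 and 0.40 did not reach a fold change of 1.5. At an unadjusted p under 0.05 edgeR gave 5, 8 and 12 of the parents, where the shares over all genes were 10.6%, 12.4% and 22.5%, and DESeq2 called 0 in each comparison. The median log2 fold changes of the parents were -0.019, 0.063 and 0.017.

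**Figure D3:**
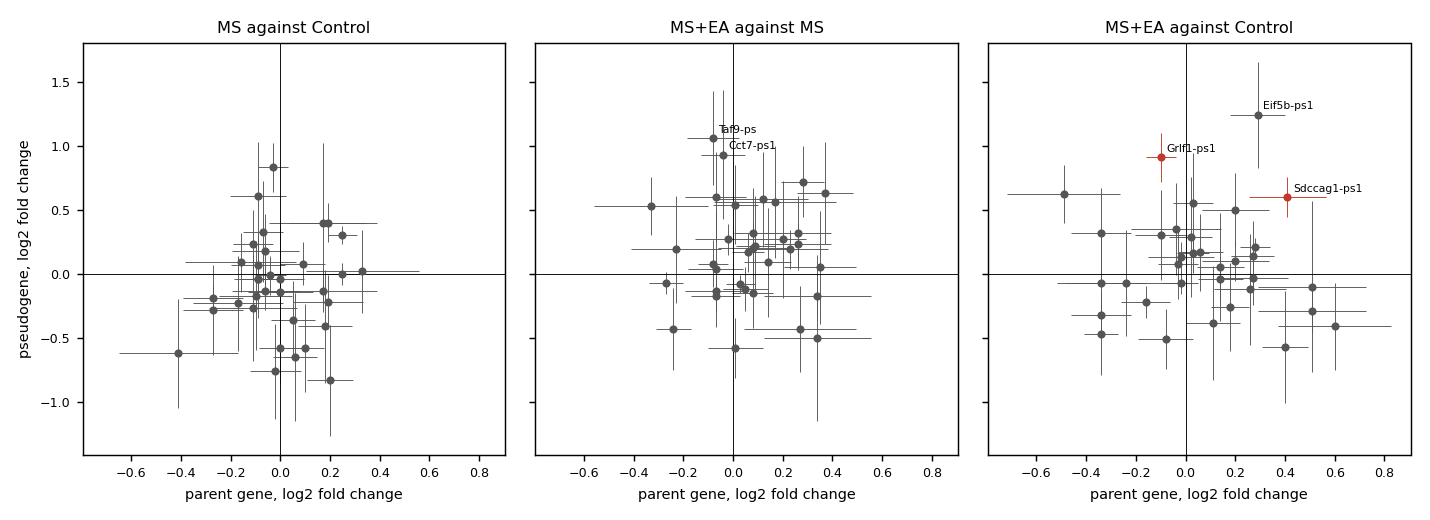
Log2 fold change of each tested pseudogene (vertical) against that of its parent gene (horizontal) in the 3 comparisons, with bars of 1 SE in each direction; the red points are the 2 pseudogenes called, and labels name these and 3 others with large log2 fold changes. Parents stay between -0.49 and 0.60, while pseudogenes reach -0.83 and 1.24.

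Grlf1-ps1 lay above Control in both groups of separated rats and was called in MS+EA. It is a copy of Arhgap35 (formerly Grlf1), which encodes a GTPase-activating protein. Its level was 4.07, 5.0 and 4.73 CPM in Control, 7.52, 7.88 and 9.08 in MS and 9.85, 9.58 and 6.36 in MS+EA rats. All 6 separated rats thus lay above all 3 Control rats. The log2 fold change against Control was 0.91 (SE 0.192, edgeR adjusted p = 0.0224) in MS+EA and 0.83 (SE 0.191, adjusted p = 0.146) in MS rats, and edgeR called only the former, while DESeq2 called the latter too (adjusted p = 0.0263). MS+EA and MS rats differed by 0.08 (SE 0.185). Without A1 the adjusted p for MS+EA against Control was 0.104, without A6 it was 0.0597 and without C10 it was 0.0662.

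Arhgap35 itself varied by 1.12 times at most over the 9 rats. It had 537, 508 and 534 CPM in Control, 515, 496 and 538 in MS and 487, 499 and 482 in MS+EA rats, with log2 fold changes against Control of -0.03 (SE 0.0598) in MS and -0.10 (SE 0.0599) in MS+EA rats. Grlf1-ps1 had 0.758 to 0.984 reads per 100 on Arhgap35 in Control, 1.46 to 1.69 in MS and 1.32 to 2.02 in MS+EA rats. These ranges did not overlap with Control, and the exact two-sided permutation test gave p = 0.1 for both, the smallest that 3 rats against 3 can give. No other annotated gene overlaps Grlf1-ps1 in GRCr8.

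Sdccag1-ps1, a copy of Nemf (formerly Sdccag1), a factor that helps clear stalled ribosomes, was the other pseudogene called. Its level was 9.05, 9.02 and 7.21 CPM in Control, 11.4, 11.2 and 10.9 in MS and 10.2, 13.9 and 14.2 in MS+EA rats. Both groups of separated rats lay above Control. The log2 fold change was 0.60 (SE 0.156, edgeR adjusted p = 0.0450) in MS+EA and 0.40 (SE 0.155, adjusted p = 0.373) in MS rats. This call was at the edge of the thresholds, with a fold change of 1.51, and was lost on leaving out any rat but C3 (adjusted p 0.0527 to 0.140). Nemf had 15.7, 21.8 and 20.5 CPM in Control, 23.4, 17.4 and 25.0 in MS and 25.0, 28.7 and 23.4 in MS+EA rats. Its log2 fold change was 0.41 (SE 0.155, adjusted p = 0.136) in MS+EA and 0.19 (SE 0.155) in MS rats, and the reads on Sdccag1-ps1 per 100 on Nemf overlapped between the groups, with 35.3 to 57.5 in Control, 43.5 to 64.2 in MS and 40.8 to 60.9 in MS+EA rats.

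Markers of red blood cells were higher in sum in separated than in Control rats, though none of the genes was called. The summed level of 3 red blood cell markers was 67.0 to 138 CPM in Control, 155 to 218 in MS and 146 to 214 in MS+EA rats. In this sum separated rats lay above Control, as for Grlf1-ps1 and Sdccag1-ps1. On Hba1, Hbb and Alas2 taken singly, MS rats lay above Control in CPM, while MS+EA rats overlapped with Control. Against Control the lowest edgeR adjusted p among Hba1, Hbb and Alas2 was 0.211 in MS and 0.0728 in MS+EA rats. Endothelial markers summed to 72.1 to 85.6, 91.4 to 104 and 74.6 to 90.9 CPM, and neuronal markers, which define the tissue, to 5700 to 5810, 5860 to 6400 and 4910 to 6180 CPM. No marker of these lists was at or under 3 reads in every rat. Their part in the results was not tested. In tissue samples such as these, fewer cells of a type and less RNA per cell cannot be told apart.

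Eif5b-ps1 had the largest log2 fold change among the pseudogenes with a parent in MS+EA against Control, and was not called. It is named after Eif5b, which helps the ribosomal subunits join at the start of translation. It had 0.749, 1.89 and 0.746 CPM in Control, 2.22, 1.38 and 1.56 in MS and 2.08, 2.21 and 3.74 in MS+EA rats. Every MS+EA rat lay above every Control rat, while MS overlapped both. The log2 fold change between MS+EA and Control was 1.24 (SE 0.412, edgeR adjusted p = 0.0971). It was called with every gene of at least 1 read tested (adjusted p = 0.0453) and without A2 (adjusted p = 0.0422). Eif5b had 0.29 (SE 0.112, adjusted p = 0.153). Wwp2, a ubiquitin ligase gene that contains Eif5b-ps1 in GRCr8, had 0.05 (SE 0.134).

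**Figure D4:**
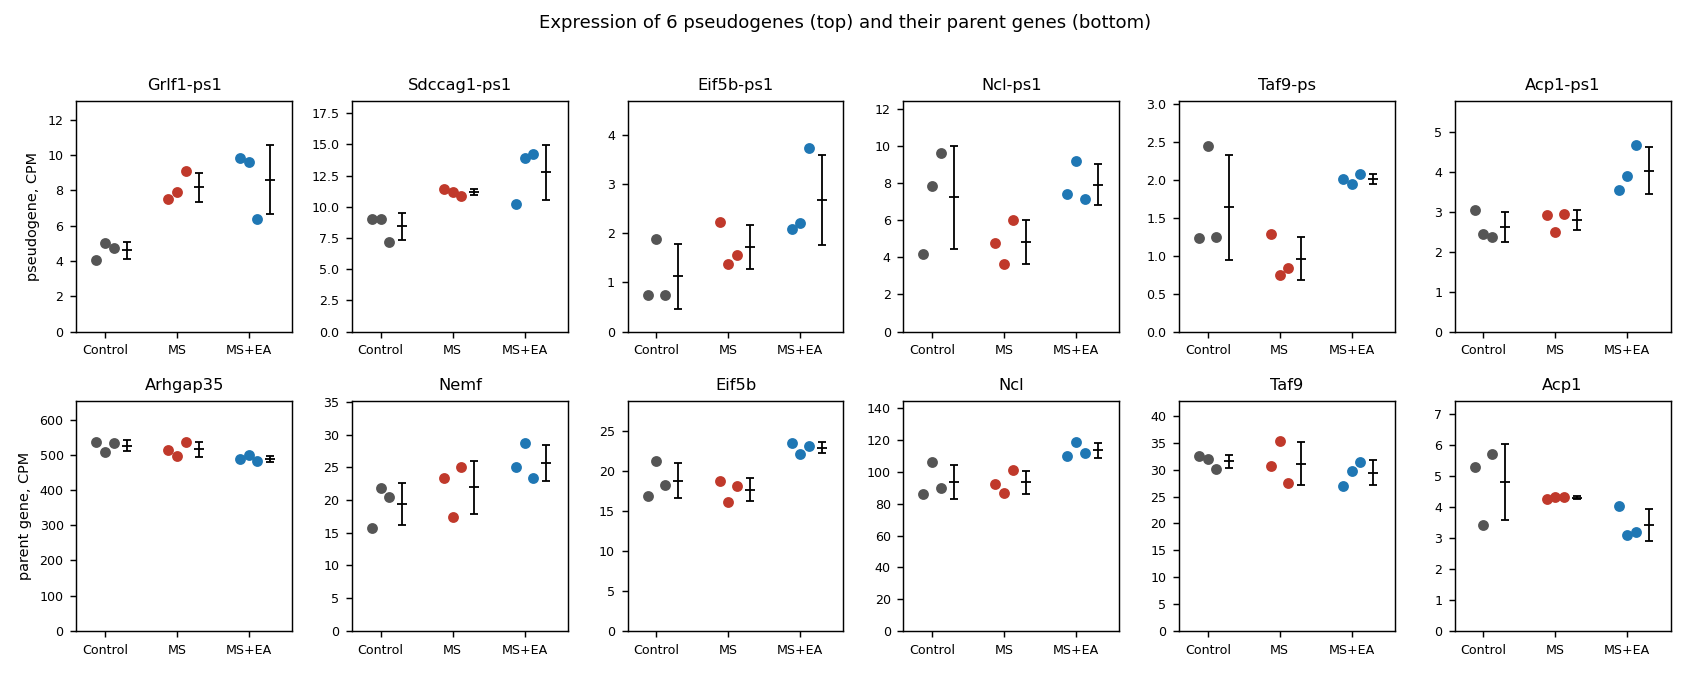
CPM of 6 pseudogenes (top row) and of their parents (bottom row), 1 point per rat in rat order within each group, with the mean and SD (n = 3) as a black bar beside the points; each panel has its own axis from 0. All 6 separated rats lie above the Control rats for Grlf1-ps1 and Sdccag1-ps1, while Arhgap35 stays between 482 and 538 CPM.

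Ncl-ps1 and Taf9-ps had their lowest group mean in MS, and neither was called. Ncl-ps1 is named after nucleolin, a major protein of the nucleolus, where ribosomes are assembled. It had 4.17, 7.87 and 9.64 CPM in Control, 4.78, 3.63 and 6.01 in MS and 7.42, 9.18 and 7.15 in MS+EA rats. MS+EA lay above MS, while Control rats covered nearly the whole range. The log2 fold change was 0.72 (SE 0.280, edgeR adjusted p = 0.329) for MS+EA against MS and -0.58 (SE 0.278, adjusted p = 0.486) for MS against Control. Ncl had 85.9, 106 and 89.8 CPM in Control, 92.7, 86.9 and 101 in MS and 110, 119 and 112 in MS+EA rats, a log2 fold change of 0.28 (SE 0.088, adjusted p = 0.260) for MS+EA against MS. The ratio of Ncl-ps1 to Ncl was 0.46 higher on the log2 scale in MS+EA than in MS (exact permutation p = 0.1). Usp54, which contains Ncl-ps1 in GRCr8, had 0.19 (SE 0.168).

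Taf9-ps, named after a subunit of the general transcription factor TFIID, had 1.23, 2.44 and 1.24 CPM in Control, 1.28, 0.751 and 0.842 in MS and 2.01, 1.94 and 2.07 in MS+EA rats. The MS+EA rats were close together and above all MS rats, and A2 was the highest of all. The log2 fold change of MS+EA against MS was 1.06 (SE 0.369, edgeR adjusted p = 0.30), beside -0.08 (SE 0.105) for Taf9, which had 27.0 to 35.3 CPM over all rats. Rufy2 and Pbld2, which contain Taf9-ps in GRCr8, had -0.09 (SE 0.355) and -0.32 (SE 0.321). Cct7-ps1, named after a subunit of the chaperonin that folds actin and tubulin, had 9, 11 and 6 reads in Control, 4, 4 and 8 in MS and 7, 10 and 9 in MS+EA rats. Its log2 fold change of MS+EA against MS was 0.93 (SE 0.50, adjusted p = 0.462), while Cct7, at 125 to 163 CPM, had -0.04 (SE 0.0881).

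Acp1-ps1 and its parent Acp1, a small tyrosine phosphatase gene, differed in opposite directions, and neither passed the test. The pseudogene had 3.05, 2.44 and 2.36 CPM in Control, 2.92, 2.50 and 2.95 in MS and 3.54, 3.89 and 4.69 in MS+EA rats. Acp1 had 5.30, 3.41 and 5.72 in Control, 4.26, 4.32 and 4.33 in MS and 4.02, 3.08 and 3.18 in MS+EA rats. All MS+EA rats thus lay above the others on the pseudogene and below the MS rats on the parent. Log2 fold changes of MS+EA were 0.62 (SE 0.226, edgeR adjusted p = 0.126) against Control and 0.53 (SE 0.225, adjusted p = 0.364) against MS for Acp1-ps1, and -0.49 (SE 0.228, adjusted p = 0.228) and -0.33 (SE 0.230, adjusted p = 0.586) for Acp1. Reads on the pseudogene per 100 on Acp1 were 57.6, 71.4 and 41.3 in Control, 68.5, 58.0 and 68.1 in MS and 87.9, 126 and 148 in MS+EA rats. The log2 ratio differed by 1.07 from Control and by 0.85 from MS (exact permutation p = 0.1 in both). Sos2, which contains Acp1-ps1 in GRCr8, had 0.16 (SE 0.106) for MS+EA against Control.

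The pseudogenes with most reads differed little. Calm-ps2 had 213, 200 and 182 CPM in Control, 182, 204 and 209 in MS and 169, 202 and 197 in MS+EA rats, and its 3 log2 fold changes lay between -0.07 and 0.00. Calm2, the calmodulin gene whose copy it is by its current name, had 342 to 344 CPM in Control, 401 to 420 in MS and 315 to 371 in MS+EA rats. MS rats were thus highest on the parent (log2 fold change 0.25 against Control, edgeR adjusted p = 0.186, and -0.27 for MS+EA against MS, adjusted p = 0.207), and reads on the copy per 100 on Calm2 were 45.4 to 51.8 in MS, 53.4 to 61.7 in Control and 51.7 to 62.7 in MS+EA rats.

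Eif4g2-ps1 and Eif4g2, a translation initiation factor gene, lay above Control together in both other groups. The pseudogene had 67.5, 65.6 and 66.9 CPM in Control, 77.3, 80.4 and 88.1 in MS and 76.6, 80.1 and 75.3 in MS+EA rats. Its log2 fold change was 0.30 (SE 0.0696, edgeR adjusted p = 0.146) in MS and 0.21 (SE 0.070, adjusted p = 0.0922) in MS+EA rats against Control. Eif4g2 had 300, 305 and 317 CPM in Control, 354, 382 and 357 in MS and 369, 381 and 369 in MS+EA rats. The parent gene had 0.25 (SE 0.0597, adjusted p = 0.154) and 0.28 (SE 0.0598, adjusted p = 0.0232), the latter past the adjusted p but at a fold change of 1.21. Their ratio was narrow, at 20.4 to 24.7 reads per 100 in all rats, and slightly lower in MS+EA rats, with log2 differences of -0.12 from MS and -0.07 from Control and no overlap (exact permutation p = 0.1 in both).

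Uqcrb-ps1 had 20.8, 18.8 and 19.2 CPM in Control, 17.3, 18.8 and 17.3 in MS and 18.1, 21.4 and 24.9 in MS+EA rats, with a log2 fold change of 0.27 (SE 0.122, edgeR adjusted p = 0.393) for MS+EA against MS, and Uqcrb stayed between 8.46 and 10.5 CPM. Sms-ps1, named after spermine synthase, had 15.5, 20.1 and 18.1 CPM in Control, 10.4, 16.3 and 19.2 in MS and 14.9, 22.4 and 15.3 in MS+EA rats. The groups overlapped in CPM. Reads on Sms-ps1 per 100 on Sms were 22.4 to 25.3 in Control, 12.6 to 21.1 in MS and 15.6 to 21.8 in MS+EA rats. Control thus lay above both other groups in this ratio, while MS and MS+EA rats overlapped. The log2 ratio was different from Control by -0.45 in MS and -0.31 in MS+EA rats (exact permutation p = 0.1 in both).

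Of the 9 copies of ribosomal protein genes 7 were tested and none was called by edgeR or DESeq2. Their log2 fold changes lay between -0.62 and 0.40 for MS against Control, -0.50 and 0.60 for MS+EA against MS and -0.32 and 0.55 for MS+EA against Control. Rpl36a-ps1 was lowest in MS, with 5, 7 and 8 reads against 12, 11 and 9 in Control and 10, 8 and 7 in MS+EA rats. In CPM the MS rats lay under all others (log2 fold change -0.62 against Control, edgeR adjusted p = 0.639, and 0.56 for MS+EA against MS, adjusted p = 0.638). Rpl36a, a 60S ribosomal protein gene, had -0.41 (adjusted p = 0.565) and 0.17 (adjusted p = 0.817) in the same comparisons. The current name of the copy is Rpl36al-ps1, which points to Rpl36al instead, a gene with 0 to 4 reads per rat. Ankub1, which contains the copy in GRCr8, had -0.92 (SE 0.468, adjusted p = 0.514) and 0.87 (SE 0.476, adjusted p = 0.474), and its part in the values of Rpl36a-ps1 was not tested. Of 32 genes of the 40S subunit 30 were tested and 0 were called in each comparison by edgeR or DESeq2. Adjusted p-values of edgeR reached 0.0378 there at the lowest. Unadjusted, 2, 2 and 5 passed, beside 10.6%, 12.4% and 22.5% of all genes. For MS against Control 25 of the 30 had a log2 fold change below 0 (median -0.109), and for MS+EA against Control 23 (median -0.105). Over all 16837 genes tested, 8462 (median -0.001) and 8263 (median 0.006) were below 0 in these comparisons. Of 13 nucleolar genes 12 were tested and 0 were called by edgeR or DESeq2. At an unadjusted p under 0.05 in edgeR there were 0, 2 and 4, beside the same 10.6%, 12.4% and 22.5% of all genes.

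Another 8 were pseudogenes of chemoreceptors, the vomeronasal and olfactory receptors of the nose, with 55 to 330 reads in all. None of the 6 tested was called by edgeR or DESeq2. Vom1r-ps53 had 4, 5 and 3 reads in Control, 11, 6 and 13 in MS and 4, 10 and 10 in MS+EA rats, a log2 fold change of 1.33 (SE 0.556, edgeR adjusted p = 0.420) for MS against Control. Vom1r47, which contains it in GRCr8, had 0.0 (SE 0.614) in that comparison, at 5 to 24 reads per rat. Vom1r-ps54 had 7, 5 and 6 reads in Control, 15, 9 and 12 in MS and 9, 8 and 12 in MS+EA rats. Its log2 fold change was 1.02 (SE 0.443, adjusted p = 0.451) in MS and 0.97 (SE 0.454, adjusted p = 0.227) in MS+EA rats. In CPM all separated rats lay above Control on Vom1r-ps54, at 3 to 15 reads per rat for this pair of pseudogenes. Olr1604-ps, which lies within Gabrb1, a GABA receptor gene, in GRCr8, was even over the animals with 32 to 41 reads per rat.

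Hint1-ps1, named after a nucleotide-binding protein gene and chosen after its values were seen, had its lowest values in MS+EA rats. It had 3.05, 2.93 and 3.05 CPM in Control, 3.27, 3.13 and 3.07 in MS and 1.94, 2.61 and 1.75 in MS+EA rats. The log2 fold change of MS+EA was -0.58 (SE 0.235, edgeR adjusted p = 0.344) against MS and -0.51 (SE 0.235, adjusted p = 0.222) against Control. Hint1 stayed between 22.7 and 30.3 CPM over all rats.

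In the GRCr8 annotation, used for names, neighbours and overlaps, 27 of the 52 overlapped another gene and 24 a protein-coding one, so reads from the surrounding gene may be counted on them. Of the surrounding genes 16 were tested, and 0 were called by edgeR or DESeq2 and 0 reached an unadjusted p under 0.05 in edgeR in any comparison. All 52 were found there, 51 as pseudogenes, and Zfp773-ps1 is now annotated as protein-coding. It had 49 to 84 reads per rat and log2 fold changes between -0.19 and 0.04.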

How the data were processed

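Frontal cortex RNA of 9 rats, 3 per group, was analysed from the whole-number counts per gene that the authors deposited without normalization. The submitters' processing notes name HISAT2 2.0.4 and Rnor_6.0. The counting program, strand setting and treatment of reads with several places are not given in the sources used here. The labels give each library its own animal number and no batch or date. Litter and cage of each rat are not given either, though separation was applied to whole litters. The p-values are set against the spread between these samples, treated as independent, so litter and group cannot be told apart. Members, gene lists and tests were chosen with earlier results of these data known.

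Counts were normalized by TMM in edgeR 4.0.16 (R 4.3.3), filtered by filterByExpr (minimum count 10; 16837 genes kept) and fitted in all 9 rats together, 1 mean for each group, by glmQLFit. Each comparison used glmQLFTest, with p-values adjusted over all genes tested after Benjamini and Hochberg, and a gene was called when it differed by more than 1.5 times at an adjusted p under 0.05. These are the study's thresholds, but the study used EBSeq. The SE of a log2 fold change is its size over the root of its F value. CPM used TMM library sizes. The log2 ratio of pseudogene to parent had 1 read added to both and was tested by exact two-sided permutation of the rats. Alternatives were DESeq2 1.42.0, its size factors (RLE), other filters, the 6 rats compared, no fold threshold, 0.5 reads added and omission of each rat. Tables and plots used Python 3.11.15.

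The parent of a pseudogene is the symbol left without -ps and its digits, found in the table (33), by a RefSeq synonym (7) or by the current name (1). Values per rat are given for pseudogenes called, for those with a rat at 3 reads or fewer and another at 30 or more, for those whose groups did not overlap at a fold change above 1.5, for the 5 with most reads and for the pair the study lists (Rps2-ps2 and Ncl-ps1). Their parents are given per rat or by a range, group mean, fold change or ratio. Rps2-ps1, Rpl32-ps3, the Hsc70 copies, Trim15-ps1, Olr1604-ps, Zfp773-ps1, the neighbours of Rps2-ps2 and the surrounding genes fall outside this rule and were chosen after their values were seen. RefSeq names, gene order and overlaps with surrounding genes are those of GRCr8. Gene order covers only the genes counted here. The overlaps come from GRCr8 coordinates and were not checked in Rnor_6.0, the build of the counts.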

Additional observations from a re-analysis of the deposited data

How the results depend on the processing

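The number of pseudogenes called for MS against Control was 0 in the main analysis, 1 with DESeq2 (Grlf1-ps1, adjusted p = 0.0263), 2 with every gene of at least 1 read tested (Grlf1-ps1 and Rps2-ps2) and 0 to 1 when each rat was left out, the 1 being Rps2-ps2 without B3. For MS+EA against MS it was 0, then 1 with every gene of at least 1 read tested and 0 to 1 without a rat, each time Rps2-ps2, and again without B3. These calls of Rps2-ps2 follow from the reads in B4 and B6 that brought it past the read minimum, and are no support for a difference between groups. For MS+EA against Control it was 2, then 1 in a fit of the 6 rats compared (Sdccag1-ps1 lost, adjusted p = 0.0748) and 0 to 2 without a rat, with 0 on leaving out A1, A6 or C10. The other alternatives kept each of these counts or moved it within 1.5 times. No share over all genes is given for the alternatives, so their counts show only how the main count moves. Of 52 single log2 fold changes and ratios, 4 changed sign, all of them parent genes and only when a rat was left out. Their ranges without a rat were -0.06 to 0.00 for Arhgap35 (MS against Control), -0.13 to 0.06 for Cct7, -0.16 to 0.02 for Taf9 and -0.05 to 0.40 for Rpl36a (MS+EA against MS). The cause was not tested. Depth limits most the 18 pseudogenes with under 100 reads in all rats together. Low totals coincide with MS+EA, so depth and group cannot be told apart. No paired analysis was possible because no 2 of the groups share more than 1 replicate number and a number names a different animal in each group.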

Other observations

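The table also types 79 named pseudogenes as miscRNA and 8 as mRNA, of which 21 reached 45 reads. All 21 were tested and 0 were called by edgeR in any comparison. At an unadjusted p under 0.05 there were 2, 1 and 7 for MS against Control, MS+EA against MS and MS+EA against Control. The shares over all genes were 10.6%, 12.4% and 22.5%. DESeq2 called 0, 0 and 3 (Cct6a-ps1, Tnxa-ps1 and Uchl3-ps1). The share that DESeq2 called over all genes is not given here, so these counts are not read as a result. The lowest edgeR adjusted p was that of Rpl6-ps1, at 0.0492 for MS+EA against Control, with a log2 fold change of -0.45 (SE 0.121) and a fold change that did not reach 1.5. Uchl3-ps1 had 68, 75 and 20 reads in Control, 14, 10 and 41 in MS and 15, 12 and 8 in MS+EA rats, a log2 fold change of -1.92 (SE 0.563, edgeR adjusted p = 0.0660) for MS+EA against Control. Tnxa-ps1 had 66, 49 and 56 reads in Control, 53, 120 and 53 in MS and 86, 77 and 134 in MS+EA rats, with 1.11 (SE 0.354, adjusted p = 0.0854) in that comparison. Hmgb1-ps4 held most reads among them, 9281 in all. These genes were chosen after their values were seen.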
